A study of Homo sapiens with 9 samples.

Results

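The NRF2 pathway antioxidant genes are 9 named genes: NFE2L2, KEAP1, GCLC, GCLM, SLC7A11, TXNRD1, SRXN1, NQO1 and HMOX1. The rule that chose them is a list of names with no threshold on a measured value, though the list was made with earlier results of these data known. All 9 were found among the 27673 genes of the count table and among the 15551 genes that passed the filter on low counts. The cells were A498, a line derived from a human clear cell renal cell carcinoma. All 3 groups were infected with a lentivirus carrying a short hairpin RNA (shRNA) in the pLKO.1 vector and kept under puromycin. The shControl cells received a control hairpin and have the genotype label WT, the shBMAL1 cells carried a BMAL1 knockdown, and the shARNT cells carried an ARNT knockdown. Each group had 3 biological replicates, which gave 9 RNA-seq libraries, and depletion was in selected pools of cells. No label names more than 1 hairpin per gene. The paper lists 1 hairpin for ARNT and more than 1 for BMAL1, and the labels do not say which BMAL1 hairpin was used. BMAL1 and ARNT are related bHLH-PAS transcription factors, the first a core part of the circadian clock and the second the usual partner of HIF2α and of the aryl hydrocarbon receptor, so the comparisons ask how loss of each protein alters the RNA of the antioxidant genes.

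NRF2, the product of NFE2L2, is a transcription factor held at a low level by KEAP1, which presents it to a CUL3 ubiquitin ligase for degradation. Oxidants and electrophiles modify cysteines of KEAP1, NRF2 then accumulates, pairs with a small MAF protein and binds antioxidant response elements. Its targets supply glutathione, thioredoxin and NADPH, remove quinones and export conjugates, and the pathway is known to be active in some renal cancers, above all those that have lost fumarate hydratase. Because NRF2 is controlled mainly through its protein, the level of NFE2L2 RNA is not a measure of NRF2 activity.

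The antioxidant response element core, TGACNNNGC, was searched because it is the element through which NRF2 binds DNA. The search covered both strands of the 250 bases before the first listed RefSeq start of each gene. Sequences for 7 of the 9 genes were matched, and those for HMOX1 and SLC7A11 were not analysed here. The core was present in 2 of the 7 windows, those of GCLM and TXNRD1, and in 11.0% of all 27305 windows of the same length. The sequences are shown for these 2 genes because GCLM had the largest rise and TXNRD1 the highest level in shARNT cells, and the core is in capitals. Both were matched exactly once to GRCh37, the GCLM window at chr1:94374987-94375236 on the minus strand and the TXNRD1 window at chr12:104609307-104609556 on the plus strand, and are written 5′ to 3′ along the gene. In GCLM the core lies on the opposite strand and is therefore seen as its reverse complement.
GCLM: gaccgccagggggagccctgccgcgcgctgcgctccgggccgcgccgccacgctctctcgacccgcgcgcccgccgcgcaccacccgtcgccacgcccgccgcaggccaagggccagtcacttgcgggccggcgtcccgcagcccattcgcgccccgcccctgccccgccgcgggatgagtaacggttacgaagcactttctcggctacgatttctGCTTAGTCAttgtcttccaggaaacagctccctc
TXNRD1: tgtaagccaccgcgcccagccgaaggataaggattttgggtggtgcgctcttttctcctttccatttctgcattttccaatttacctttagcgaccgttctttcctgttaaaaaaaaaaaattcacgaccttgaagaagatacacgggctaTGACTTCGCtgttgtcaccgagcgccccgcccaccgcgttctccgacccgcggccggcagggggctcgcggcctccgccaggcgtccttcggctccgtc
The E-box CACGTG, which BMAL1 binds with CLOCK, was in none of the 7 windows and in 6.49% of all windows. The hypoxia response element core was searched as ACGTG, which lies within that E-box, and was also in none of the 7 and in 18.7% of all windows. The paper's form of this element allows G in place of the first A, which gives GCGTG. The xenobiotic response element core GCGTG, bound by the aryl hydrocarbon receptor with ARNT, was in the windows of NFE2L2, GCLC and GCLM and in 31.9% of all windows. These are matches of letters in a short window, and elements farther away or at other starts of a gene were not searched.

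Library totals were 35269851 to 36099075 counts, and the 9 genes held between 1197 and 117609 counts in each library. The unit of level is CPM, in which a count is set against its library's size after scaling by trimmed means of M values (TMM). The coefficient of variation of a gene within a group was 0.76% to 9.44%. ARNT RNA fell in shARNT cells (log2 fold change -2.41, edgeR adjusted p = 1.35e-17) and BMAL1 RNA, listed under its older symbol ARNTL, fell in shBMAL1 cells (-1.70, adjusted p = 1.94e-11). ARNT was also lower in shBMAL1 cells (-0.65, adjusted p = 1.54e-08), and ARNTL was higher in shARNT cells (0.55, adjusted p = 8.27e-06). All 6 kidney epithelial markers were measured, but their summed level in CPM ranged from 7730 to 7780 for shControl, from 5720 to 6190 for shBMAL1 and from 2070 to 2230 for shARNT libraries. VIM, an intermediate filament gene that is also mesenchymal, carried most of that sum, from 5974 CPM in control to 812.1 CPM in shARNT cells. The members of the list differed, since PAX8 rose in shARNT cells (log2 fold change 1.48, adjusted p = 1.99e-14) and KRT18 was not called (-0.007, adjusted p = 0.872). Of the 7 markers of other cell types, PTPRC, CD3E, PECAM1, VWF and DCN were at or near 0. The other two, CD68 and COL1A1, brought the sum in CPM to between 2030 and 2140 for shControl, between 1790 and 1900 for shBMAL1 and between 186 and 189 for shARNT libraries. Both marker sums therefore moved with the groups, and their part in the results was not tested. In RNA from whole cultures, fewer cells of a kind and less RNA per cell cannot be told apart.

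A gene was called changed where its p, adjusted by Benjamini-Hochberg, was under 0.1 in the quasi-likelihood test of edgeR, fitted to all genes and all 9 libraries. In shARNT against shControl cells, 8 of the 9 genes rose and HMOX1 fell, where 40.5% of all tested genes were called higher and 41.3% lower. The median log2 fold change of the 9 genes was 0.87, against -0.01 over all tested genes. In shBMAL1 cells, 5 rose (NFE2L2, GCLM, SLC7A11, TXNRD1 and NQO1), 3 fell (KEAP1, GCLC and HMOX1) and SRXN1 was not called, where 31.9% of all genes were called higher and 31.5% lower. The median of the 9 genes was 0.08 there, against -0.001 over all tested genes. Since most genes were called in both comparisons, the sizes of the changes say more than the calls. A log2 fold change over 1 was reached by 3 of the 9 genes (GCLM, SLC7A11 and TXNRD1) in shARNT cells, where 12.4% of all genes exceeded it. In shBMAL1 cells SLC7A11 alone exceeded it, as did 4.85% of all genes.

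**Figure D1:**
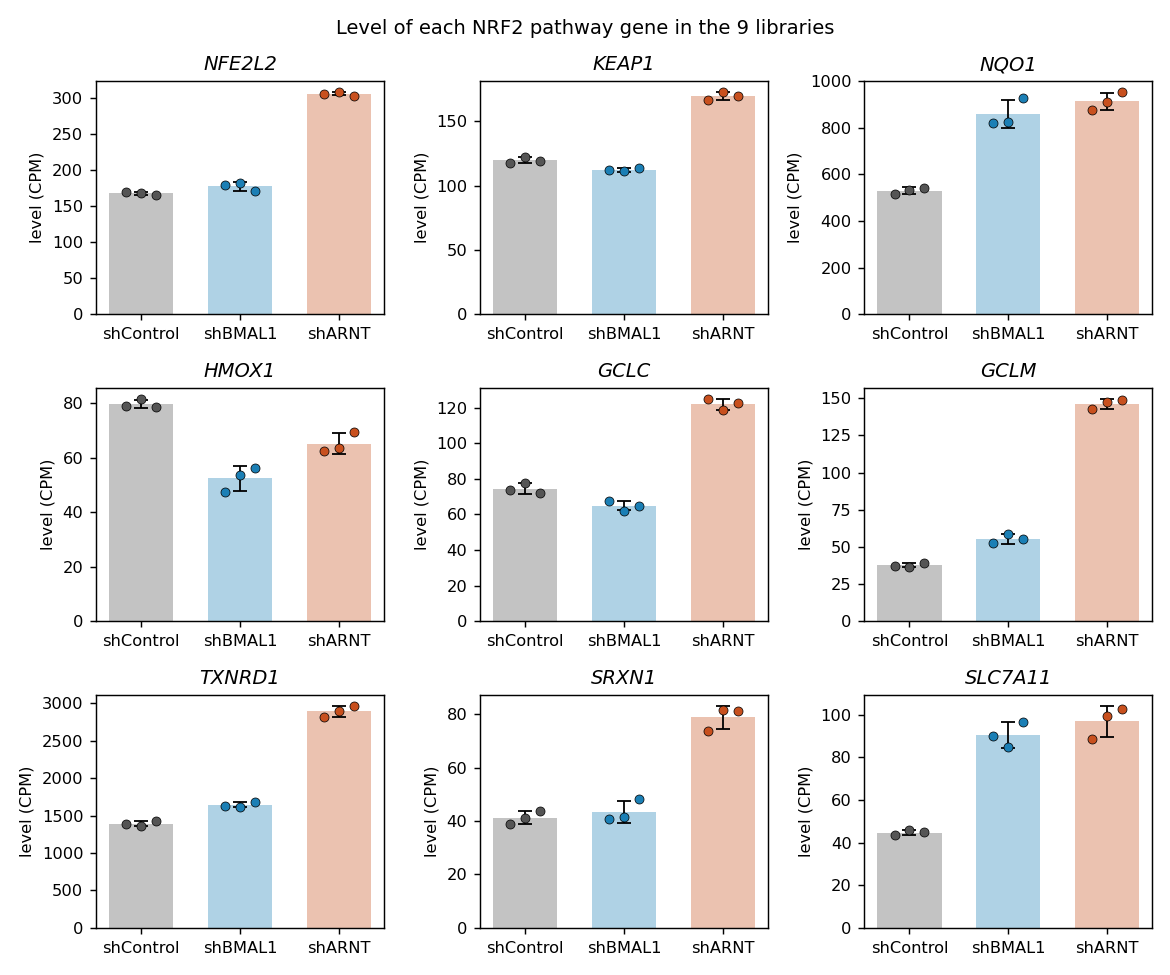
Level of each of the 9 genes in every library, as TMM-scaled CPM, with points for libraries and bars for the mean ± SD of 3 replicates. The shARNT points lie above all shControl points for 8 genes and below them for HMOX1, whereas the shBMAL1 points reach the shARNT range only for NQO1 and SLC7A11.

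NFE2L2 itself was measured at 169.1, 168.6 and 165.5 CPM in the shControl libraries, at 179.2, 181.9 and 170.4 CPM in shBMAL1 and at 305.6, 307.6 and 303 CPM in shARNT. The shARNT libraries stood far above all others, and the shBMAL1 libraries lay just above the control range. The log2 fold change in shARNT cells was 0.86 ± 0.04 (SE, n = 3 per group, edgeR adjusted p = 2.02e-14), a 1.82-fold rise. In shBMAL1 cells it was 0.08 ± 0.04 (adjusted p = 0.0793), with values from 0.06 to 0.13 over 17 alternatives. The call was lost in 11 of these. Among them were DESeq2 (adjusted p = 0.109), median-ratio factors (adjusted p = 0.107), no filter (adjusted p = 0.139) and the 6 libraries compared (adjusted p = 0.126). It was also lost on leaving out any 1 of the 3 shControl libraries, shBMAL1 replicate 1 or 2, or shARNT replicate 2.

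KEAP1, the repressor of NRF2, rose less than NFE2L2 in shARNT cells and was lower than control in shBMAL1 cells. Its levels were 118, 122.1 and 119.3 CPM in shControl, 111.9, 111.2 and 113.8 CPM in shBMAL1 and 166.8, 172.7 and 169.7 CPM in shARNT libraries. The 3 groups did not overlap, with shARNT highest and shBMAL1 lowest. KEAP1 rose by 0.50 ± 0.04 on the log2 scale in shARNT cells (adjusted p = 2.34e-10) and changed by -0.09 ± 0.04 in shBMAL1 cells (adjusted p = 0.048). With library size alone as the scaling, the second call was lost (-0.05, adjusted p = 0.323). Leaving out replicate 2 of shControl also ended it (adjusted p = 0.146), as did leaving out replicate 2 of shBMAL1 (adjusted p = 0.115). Within each library, the count of NFE2L2 relative to KEAP1 was 1.40 ± 0.03 (SD, n = 3) in shControl, 1.58 ± 0.07 in shBMAL1 and 1.80 ± 0.03 in shARNT cells. This ratio does not depend on the scaling between libraries, and its ranges in the 3 groups did not overlap. An exact permutation test of 3 against 3 libraries cannot go below p = 0.10, so ratios within libraries are given as values.

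Glutathione is the main thiol of the cell. Glutamate-cysteine ligase, the rate-limiting enzyme of glutathione synthesis, consists of a catalytic subunit (GCLC) and a modifier subunit (GCLM) that raises its activity. GCLM was at 37.43, 36.36 and 39.36 CPM in shControl, at 52.27, 58.55 and 55.24 CPM in shBMAL1 and at 142.6, 147.7 and 148.7 CPM in shARNT libraries. The groups were separate, in that order. GCLM, whose promoter window is printed above, rose 3.88-fold in shARNT cells (log2 fold change 1.96 ± 0.05, adjusted p = 6.07e-18), the largest change among the 9 genes and higher than in 97.9% of all genes. It rose 1.47-fold in shBMAL1 cells (0.55 ± 0.05, adjusted p = 2.1e-08).

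GCLC levels were 73.74, 77.7 and 71.78 CPM in shControl, 67.33, 62.15 and 64.86 CPM in shBMAL1 and 124.6, 118.7 and 122.3 CPM in shARNT libraries. All shBMAL1 libraries lay below, and all shARNT libraries above, the control range. The log2 fold change was 0.71 ± 0.05 in shARNT (adjusted p = 1.89e-11) and -0.20 ± 0.05 in shBMAL1 cells (adjusted p = 0.00135). Both subunits therefore rose after ARNT depletion, whereas after BMAL1 depletion the modifier rose and the catalytic subunit fell. The ratio of GCLM to GCLC counts was 0.508, 0.468 and 0.548 in the shControl libraries, 0.776, 0.942 and 0.852 in shBMAL1 and 1.14, 1.24 and 1.22 in shARNT. It was thus higher in every library of either depletion than in any control library.

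SLC7A11 encodes the light chain of the cystine/glutamate antiporter, which brings in the cystine that glutathione synthesis needs. It was measured at 43.55, 45.81 and 44.96 CPM in shControl, at 89.85, 84.88 and 96.88 CPM in shBMAL1 and at 88.81, 99.37 and 102.8 CPM in shARNT libraries. All 6 depleted libraries lay above the controls, and the ranges of the depleted groups overlapped. The log2 fold change was 1.12 ± 0.06 in shARNT (adjusted p = 6.03e-13) and 1.02 ± 0.06 in shBMAL1 cells (adjusted p = 1.58e-11), and the latter was higher than in 95.3% of all genes. SLC3A2, the heavy chain that anchors the antiporter, was not called in shARNT cells (-0.02, adjusted p = 0.552) and fell in shBMAL1 cells (-0.27, adjusted p = 2.18e-06), and it was named after its values were seen. The ratio of SLC7A11 to SLC3A2 counts was 0.14 ± 0.006 in shControl, 0.343 ± 0.02 in shBMAL1 and 0.309 ± 0.01 in shARNT cells.

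**Figure D2:**
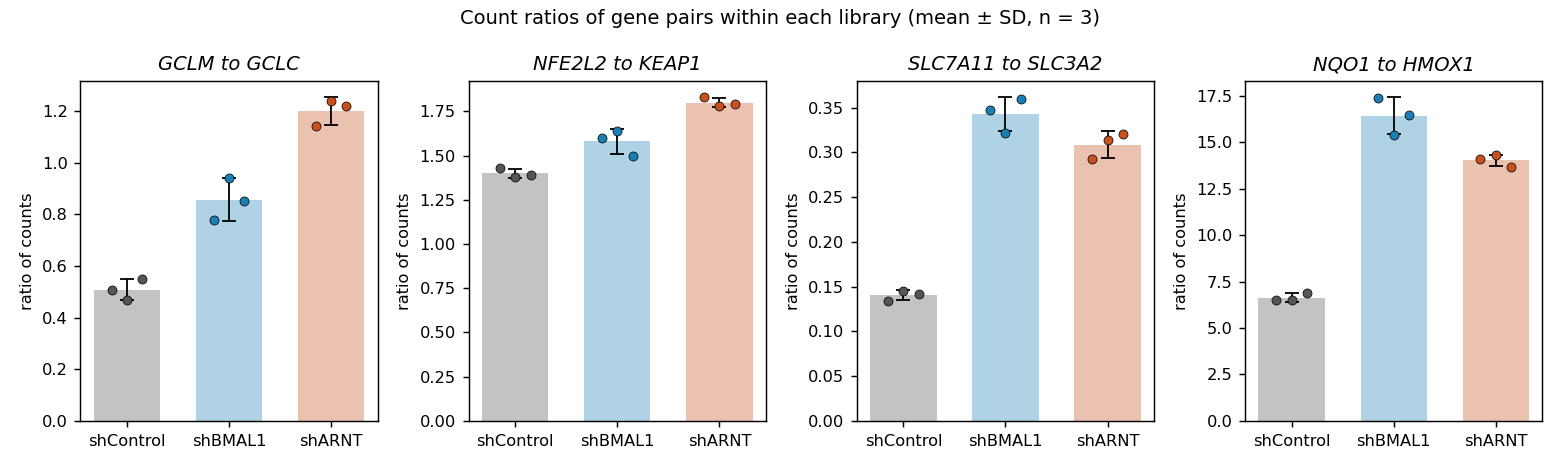
Ratio of the counts of 2 genes within each library for 4 pairs, with points for libraries, bars for the mean of 3 replicates and lines for ± SD. GCLM to GCLC and NFE2L2 to KEAP1 increase from shControl over shBMAL1 to shARNT, while SLC7A11 to SLC3A2 and NQO1 to HMOX1 are highest in shBMAL1.

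TXNRD1 encodes thioredoxin reductase 1, the cytosolic enzyme that uses NADPH to keep thioredoxin reduced. Its levels were 1386, 1363 and 1433 CPM in shControl, 1635, 1622 and 1687 CPM in shBMAL1 and 2814, 2903 and 2963 CPM in shARNT libraries. No group overlapped another. TXNRD1 rose 2.08-fold in shARNT (1.05 ± 0.03, adjusted p = 1.31e-16) and 1.18-fold in shBMAL1 cells (0.24 ± 0.03, adjusted p = 3.29e-06). SRXN1, sulfiredoxin, repairs over-oxidised peroxiredoxins and was at 38.9, 40.95 and 43.81 CPM in shControl, 40.92, 41.42 and 48.28 CPM in shBMAL1 and 73.69, 81.52 and 80.98 CPM in shARNT libraries. The shBMAL1 and shControl ranges overlapped, and the shARNT libraries were above both. SRXN1 rose 1.91-fold in shARNT cells (0.93 ± 0.07, adjusted p = 5.22e-11). In shBMAL1 cells its log2 fold change was 0.08 with a 95% interval of -0.06 to 0.22 (adjusted p = 0.332), and without shBMAL1 replicate 3 it was -7e-04. The exons of SRXN1 share 2292 of 2528 bases with another protein-coding gene model on the same strand, so its counts are uncertain.

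NQO1, a quinone reductase and a standard readout of NRF2, was at 514.6, 532.2 and 543.4 CPM in shControl, 822.6, 824.5 and 927.5 CPM in shBMAL1 and 878.5, 909.3 and 953.4 CPM in shARNT libraries. All 6 depleted libraries were above the controls, and the depleted groups overlapped each other. The rise was 1.72-fold in shARNT (0.79 ± 0.04, adjusted p = 1.89e-12) and 1.62-fold in shBMAL1 cells (0.70 ± 0.04, adjusted p = 6.59e-11). SLC7A11 (log2 fold change 1.02) and NQO1 had the largest rises of the 9 in shBMAL1 cells, followed by GCLM (0.55). HMOX1 changed there by -0.61.

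HMOX1, haem oxygenase 1, degrades haem to biliverdin, iron and carbon monoxide, and is repressed by BACH1 as well as induced by NRF2. It went the other way. Its levels were 79, 81.62 and 78.8 CPM in shControl, 47.35, 53.61 and 56.27 CPM in shBMAL1 and 62.41, 63.59 and 69.56 CPM in shARNT libraries. The 3 groups did not overlap, and every depleted library was below every control library. HMOX1 fell to 65.7% of control in shBMAL1 (log2 fold change -0.61 ± 0.06, adjusted p = 3.67e-08) and to 81.7% in shARNT cells (-0.29 ± 0.06, adjusted p = 1.49e-04). With library size alone as the scaling, the shARNT value was -0.05 and not called (adjusted p = 0.389), and that scaling also moved the median of all genes to 0.23. The ratio of NQO1 to HMOX1 counts, which no scaling can move, was 6.64 ± 0.22 in shControl, 16.4 ± 1.00 in shBMAL1 and 14 ± 0.3 in shARNT cells. BACH1 RNA changed by -0.47 in shBMAL1 (adjusted p = 1.03e-06) and by 0.19 in shARNT cells (adjusted p = 0.00497). It was named after its values were seen, and its part in the fall of HMOX1 was not tested.

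**Figure D3:**
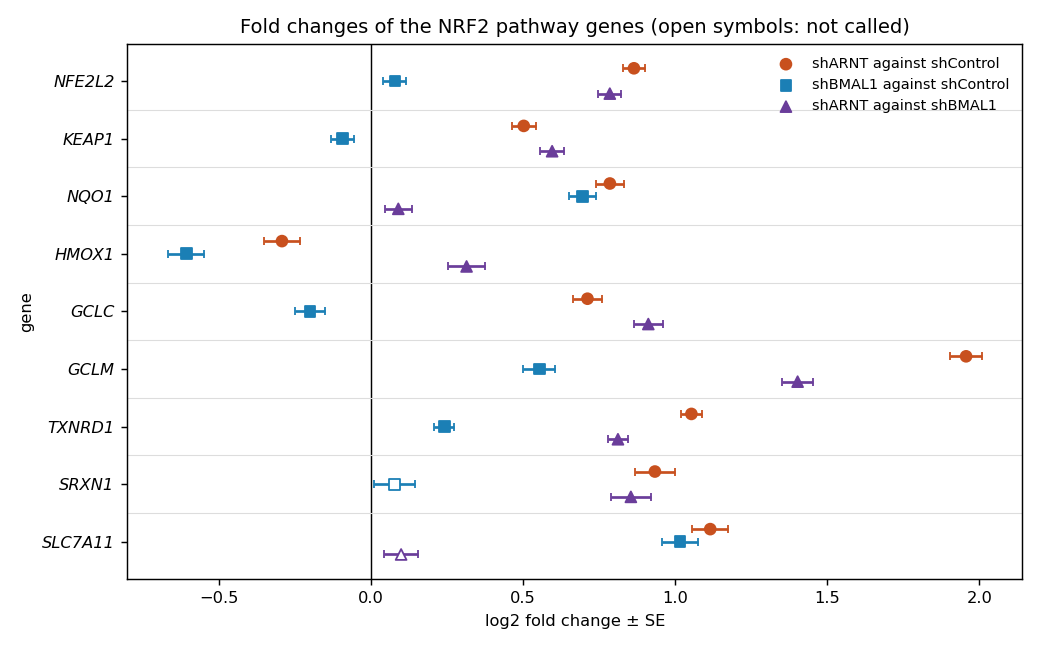
Log2 fold change ± SE of each gene in shARNT and in shBMAL1 cells, both against shControl, and in shARNT against shBMAL1 cells, with open symbols where the gene was not called. The open symbols are SRXN1 in shBMAL1 cells and SLC7A11 between the depletions, and HMOX1 is the only gene below 0 in shARNT cells.

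The shARNT and shBMAL1 cells were also compared directly, in the same fit to all 9 libraries, which tests whether the depletions differ in effect. The estimate sets shARNT against shBMAL1 libraries, and the control libraries enter through the scaling and the shared spread. Of the 9 genes, 8 were called higher in shARNT cells and none lower, where 40.1% of all genes were called higher and 41.1% lower. A fit to the 6 depleted libraries alone called 7, without NQO1. The median of the 9 genes was 0.79, against -0.01 over all tested genes. The widest difference was that of GCLM (1.40 ± 0.05, adjusted p = 8.18e-16), followed by GCLC (0.91 ± 0.05, adjusted p = 3.67e-13) and SRXN1 (0.85 ± 0.07, adjusted p = 2.03e-10). TXNRD1 (0.81, adjusted p = 8.56e-15), NFE2L2 (0.79, adjusted p = 9.25e-14) and KEAP1 (0.60, adjusted p = 1.55e-11) came next. HMOX1 was 0.31 ± 0.06 higher in shARNT cells (adjusted p = 8.04e-05), that is, it was lowest in shBMAL1 cells. NQO1 and SLC7A11 formed the exception, a grouping made after their values were seen. NQO1 differed by 0.09 with a 95% interval of -0.003 to 0.183 (adjusted p = 0.071), and the call was lost in the fit to the 6 depleted libraries (0.08, adjusted p = 0.114) and without shBMAL1 replicate 1 (0.06, adjusted p = 0.293), shBMAL1 replicate 2 (0.06, adjusted p = 0.252), shARNT replicate 2 (0.10, adjusted p = 0.109) or shARNT replicate 3 (0.06, adjusted p = 0.247). For SLC7A11 the difference was 0.10 with an interval of -0.02 to 0.219 (adjusted p = 0.118), and it was called without shBMAL1 replicate 3 (0.15, adjusted p = 0.0319) or shARNT replicate 1 (0.16, adjusted p = 0.0157).

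To compare the genes with each other, CPM were divided by the length of the canonical transcript in kilobases. In shControl cells the order was TXNRD1 (361.1 ± 9.19 CPM per kb, SD), NQO1 (210.2 ± 5.76), NFE2L2 (68.56 ± 0.79), HMOX1 (51.36 ± 1.01), KEAP1 (46.71 ± 0.83), GCLC (19.66 ± 0.80), SRXN1 (16.31 ± 0.98), GCLM (7.72 ± 0.31) and SLC7A11 (4.64 ± 0.12), and no neighbours lay within their SDs of each other. In shARNT cells KEAP1 (66.16 ± 1.15) stood above HMOX1 (41.95 ± 2.47). There GCLC (32.21 ± 0.79), SRXN1 (31.14 ± 1.73) and GCLM (29.96 ± 0.68) came close together, and SRXN1 did not differ from either neighbour beyond the SDs. In shBMAL1 cells KEAP1 (43.78 ± 0.52) was also above HMOX1 (33.73 ± 2.95), and GCLC (17.11 ± 0.69) and SRXN1 (17.22 ± 1.63) could not be ordered. These levels assume 1 transcript form per gene.

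**Figure D4:**
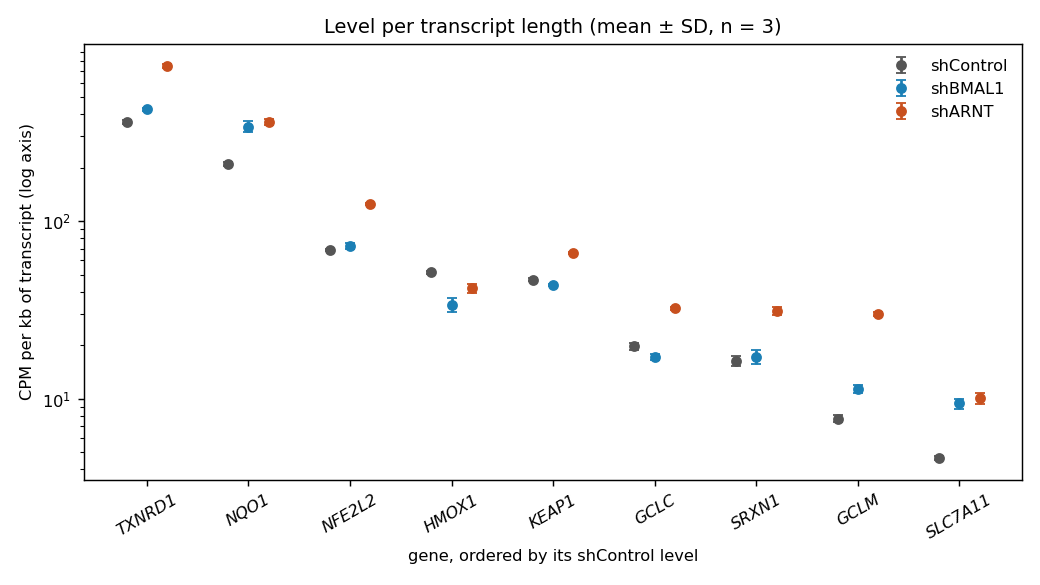
Level of the 9 genes per kilobase of canonical transcript (CPM per kb, log axis) in the 3 groups, as mean ± SD of 3 replicates. TXNRD1 and NQO1 are the highest and SLC7A11 the lowest in all 3 groups, and GCLM approaches GCLC in shARNT cells.

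The genes lie on 9 different chromosomes in GRCh37. NFE2L2 spans chr2:178083395-178257484 and KEAP1 chr19:10596801-10614234, both on the minus strand. The glutathione genes are at chr6:53362139-53481768 (GCLC), chr1:94350755-94375012 (GCLM) and chr4:139085251-139163503 (SLC7A11), all on the minus strand. TXNRD1 is at chr12:104609557-104744085 on the plus strand, SRXN1 at chr20:627259-633844 and NQO1 at chr16:69740899-69760571 on the minus strand, and HMOX1 at chr22:35776354-35790207 on the plus strand. Antisense non-coding RNAs overlap the exons of NFE2L2 (190 of 2446 bases), NQO1 (575 of 2521), GCLC (252 of 3785) and SLC7A11 (865 of 9645). The use of strand in counting was not stated, so reads of these partners may be included.

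Profiles over the 9 libraries were compared by Pearson r of log2 CPM, without a test, since 3 group means set most of it. GCLM and TXNRD1 had r = 0.996, KEAP1 and GCLC 0.991, and NQO1 and SLC7A11 0.996. NQO1 and SLC7A11 had lower r, from 0.379 to 0.465, with KEAP1 and GCLC, and HMOX1 had r from -0.749 to 0.212 with the other 8 genes. The single gene most like each member was THSD1 for NFE2L2 (0.9989), CUL9 for KEAP1 (0.9984), TNFRSF10A for GCLC (0.9974), TCP1 for GCLM (0.9981), HSPH1 for TXNRD1 (0.9989), MTSS1L for SRXN1 (0.9952), YIPF6 for NQO1 (0.9962) and RNF5 for HMOX1 (0.9853). For SLC7A11 it was NQO1. An r over 0.95 was reached by 1505 of 11227 genes for NFE2L2, by 292 for NQO1, by 292 for SLC7A11 and by 59 for HMOX1, so the HMOX1 profile is the least common of the 9.

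The wider pathway was read from 8 lists with 81 tested genes. In shARNT cells 41 rose (50.6%) and 29 fell (35.8%), where 40.5% and 41.3% of all tested genes did. In shBMAL1 cells 48 rose (59.3%) and 15 fell (18.5%), where 31.9% and 31.5% of all genes did. The medians were 0.15 and 0.22, and the shares of each list are read against these shares of all genes. The 6 genes of NADPH supply, on which TXNRD1 and NQO1 draw, had 5 higher and none lower in both. Among them PGD of the pentose phosphate pathway was at 360.7 ± 11.8 CPM in control cells, 451.6 ± 12.4 after BMAL1 depletion and 1149 ± 8.69 after ARNT depletion (log2 fold changes 0.32 and 1.67, adjusted p = 1.61e-07 and 2.76e-19). All 4 other NRF2 targets rose in shARNT cells and 3 rose and 1 fell in shBMAL1 cells, with TRIM16L at 0.78 and 1.13 (adjusted p = 5.7e-13 and 1.23e-14), a gene uncertain because TRIM16 is a near copy.

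The 20 other tested glutathione genes had 5 higher (25%) and 11 lower (55%) in shARNT cells, against 40.5% and 41.3% of all genes, and a median of -0.24. In shBMAL1 cells 11 were higher (55%) and 3 lower (15%), against 31.9% and 31.5%, with a median of 0.21. GPX3, a secreted glutathione peroxidase, fell by 1.46 in shARNT cells (adjusted p = 4.15e-18) and was not called in shBMAL1 cells (adjusted p = 0.81). GGT1, which breaks down extracellular glutathione and has near copies that can share its reads, fell by 1.71 and 0.96 (adjusted p = 7.68e-17 and 3.36e-12). Of the 11 thioredoxin and peroxiredoxin genes, 5 rose (45.5%) and 4 fell (36.4%) in shARNT cells, shares near those of all genes, and 7 rose (63.6%) and 3 fell (27.3%) in shBMAL1 cells. PRDX1 rose by 1.11 and 0.39 (adjusted p = 4.72e-16 and 3.41e-08), and TXNIP, an inhibitor of thioredoxin, fell by 1.15 and 0.87 (adjusted p = 7.44e-13 and 3.11e-10).

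Detoxification and export held 17 genes, of which 9 rose (52.9%) and 7 fell (41.2%) in shARNT cells, the latter near the 41.3% of all genes. In shBMAL1 cells 12 rose (70.6%) and 2 fell (11.8%), against 31.9% and 31.5% of all genes. AKR1B1, an aldose reductase, rose by 2.10 and 0.76 (adjusted p = 8.18e-19 and 3.94e-11), while the transporter ABCC4 fell by 3.08 and 0.36 (adjusted p = 5.25e-21 and 9.48e-07). In the haem and iron list, where HMOX1 acts, 3 of 7 tested genes rose (42.9%) and 4 fell (57.1%) in shARNT cells, and 3 rose (42.9%) and 1 fell (14.3%) in shBMAL1 cells. The biliverdin reductases, which act on the product of HMOX1, parted in shARNT cells, with BLVRA at 0.57 (adjusted p = 3.89e-10) and BLVRB at -1.43 (adjusted p = 1.42e-17). In shBMAL1 cells BLVRA rose by 0.87 (adjusted p = 2.6e-12) and BLVRB fell by 0.25 (adjusted p = 1.4e-05). Of superoxide dismutases and catalase, 2 of 3 tested genes rose in each depletion, and SOD2 rose by 1.08 in shARNT and 1.11 in shBMAL1 cells (adjusted p = 2.99e-14 and 1.47e-13).

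Among the 13 genes of the NRF2 control list, 8 rose (61.5%) and 2 fell (15.4%) in shARNT cells, against 40.5% and 41.3% of all genes. In shBMAL1 cells 5 rose (38.5%) and 4 fell (30.8%), shares near those of all genes. NFE2L1 and NFE2L3, relatives of NFE2L2, differed from it in direction or size. NFE2L1 fell by 2.05 in shARNT cells, from 576.2 ± 1.25 to 139.6 ± 5.59 CPM (adjusted p = 8.19e-20), and by 0.16 in shBMAL1 cells (adjusted p = 0.0017). NFE2L3 rose by 2.28 in shBMAL1 cells, from 15.59 ± 1.14 to 75.75 ± 6.90 CPM (adjusted p = 1.61e-15), and by 0.25 in shARNT cells (adjusted p = 0.00629).

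**Figure D5:**
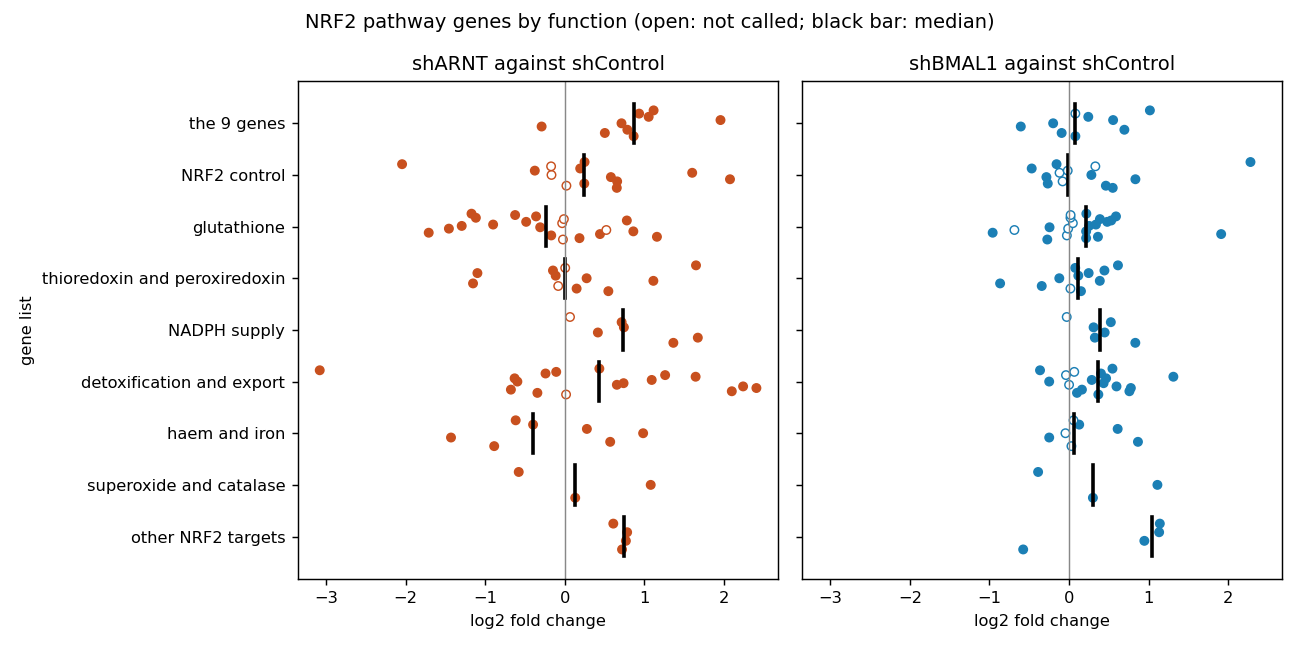
Log2 fold change of every tested gene of the 9 genes and the 8 pathway lists in shARNT and in shBMAL1 cells against shControl, with a point per gene, open where not called, and a black bar at the list median. The 9 genes have a median of 0.87 in shARNT and 0.08 in shBMAL1 cells, and the glutathione list has medians of -0.24 and 0.21.

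NQO1 and NFE2L2 are also known targets of the aryl hydrocarbon receptor with ARNT, and SLC7A11 of ATF4, so the usual targets of both factors were read beside them. AHR, the gene of the receptor, rose by 0.55 in shARNT and 1.67 in shBMAL1 cells (adjusted p = 9.4e-09 and 1.35e-15), and it was named after its values were seen. AHRR, the receptor's repressor, rose by 2.22 in shARNT and 0.77 in shBMAL1 cells (adjusted p = 6.8e-12 and 0.000201). CYP1B1 and TIPARP fell in both, by 0.23 and 0.62 in shARNT (adjusted p = 0.00824 and 7.86e-10) and by 0.34 and 0.20 in shBMAL1 cells (adjusted p = 0.000659 and 0.00201), and CYP1A1 had too few counts to test. ATF4 and DDIT3 rose in both depletions, by 0.50 and 0.70 in shARNT and by 0.23 and 0.47 in shBMAL1 cells. ASNS fell by 0.14 in shARNT cells and rose by 0.65 in shBMAL1 cells. TRIB3, PSAT1 and SLC7A5 fell in both, by 2.89, 0.81 and 1.63 in shARNT and by 0.44, 0.60 and 1.17 in shBMAL1 cells. Adjusted p was at most 0.015 for these 6 genes, of which ATF4 is the factor itself. In shARNT cells 2 of them rose (33.3%) and 4 fell (66.7%), against 40.5% and 41.3% of all tested genes. In shBMAL1 cells 3 rose (50%) and 3 fell (50%), against 31.9% and 31.5% of all genes. A part of ATF4 in the rise of SLC7A11 was not tested.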

How the data were processed

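RNA of A498 cells with shControl, shBMAL1 or shARNT (3 biological replicates each) was sequenced by the authors as stranded mRNA libraries. The methods name GRCh37, SeqMan NGen and ArrayStar, whereas the submitters' processing notes name hg38, STAR and DESeq2. Annotation release and strand use were not given in the sources used here. The deposited values were expected counts, total reads per gene without normalization. Values of 0.05 stood for no reads and were set to 0, and expected counts were rounded. Rows sharing 1 of 43 names were summed.

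The edgeR 4.0.16 quasi-likelihood test (R 4.3.3, TMM, filterByExpr) was fitted to all 9 libraries by group, with Benjamini-Hochberg adjustment over 15551 genes and calls at an adjusted p under 0.1. The test was checked on simulated data in which far fewer genes changed than were called here. That check therefore does not cover the scaling where most genes change. Intervals of 95% use the SE of that fit. Alternatives were library size alone, median-ratio factors, no filter, DESeq2 1.42.0, 6 libraries, a replicate block, halved counts, a minimum fold of 1.5, a threshold of 0.05 and leaving out each library.

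The 9 genes and the lists were chosen with earlier results of these data known. Named besides them were ARNT, ARNTL, the gene with the smallest p of each list in either depletion (1 of these is not reported here), the AHR and ATF4 lists, and the most correlated gene of each member at an average log2 CPM of at least 2. Positions are from GENCODE 44 on GRCh37, and promoters from RefSeq (GRCh38.p14) by exact match.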

Additional observations from a re-analysis of the deposited data

Results flagged for a closer look

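For 8 of the 9 genes the effects of the depletions differed, as tested by shARNT against shBMAL1 directly (edgeR). Of all 15551 tested genes, 12630 were called in that comparison, 40.1% higher and 41.1% lower, so a difference alone does not set these genes apart. The effect of shARNT minus that of shBMAL1 on the log2 scale was 1.40 for GCLM, 0.91 for GCLC, 0.85 for SRXN1, 0.81 for TXNRD1, 0.79 for NFE2L2, 0.60 for KEAP1, 0.31 for HMOX1 and 0.0904 for NQO1. Adjusted p ranged from 8.18e-16 for GCLM to 0.071 for NQO1, whose call was lost in 6 of 17 alternatives. GCLC and KEAP1 rose in shARNT and fell in shBMAL1 cells, and HMOX1 fell in both.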

How the results depend on the processing

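Of 459 recomputed fold changes of the 9 genes, 422 kept their direction and their side of the threshold. The 1 that changed sign was SRXN1 in shBMAL1 cells, not called in any alternative, which ranged from -7e-04 without shBMAL1 replicate 3 to 0.1241 over the fits that left out 1 library. Of 324 recomputed counts of calls, 307 stayed within 1.5 times the main count. With library size alone, the median of all genes moved to 0.23 in shARNT cells, the number of the 9 genes called lower there was 0, all genes were called 7827 higher and 5111 lower against 6305 and 6417 with TMM, and the pathway lists 52 higher and 23 lower. In shARNT against shBMAL1 cells the lists then had 38 higher and 31 lower, against 32 and 41. Requiring a fold change of 1.5 left none of the 9 genes lower in shARNT (0) or shBMAL1 cells (0), 2 higher in shBMAL1 cells and 5 higher in shARNT against shBMAL1 cells. The pathway lists then had 26 higher and 13 lower in shARNT, 11 and 2 in shBMAL1, and 18 and 19 between the depletions. Over all genes it gave 3116 higher and 3849 lower, 1027 and 1084, and 3017 and 3814. The same-numbered libraries of different groups did not deviate together (r from -0.041 to 0.075), and 2 of 9 libraries correlated best with their own number. With a replicate block, 9 of the 9 genes were called higher in shARNT against shBMAL1 cells, SLC7A11 being added (0.10, adjusted p = 0.091), and all genes had 6288 higher and 6395 lower calls in shARNT cells. SLC7A11 was also called there with library size alone (0.29), median-ratio factors (0.11) and DESeq2 (0.11). KEAP1 in shBMAL1 cells was not called with library size alone (-0.05, adjusted p = 0.323). With DESeq2, median-ratio factors, no filter or the 6 libraries compared, 4 of the 9 genes were called higher in shBMAL1 cells, against 5, as NFE2L2 was lost.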

Other observations

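Some genes of the lists stood out after their values were seen. SQSTM1, the autophagy receptor that sequesters KEAP1, was at 474.7 ± 21.5 CPM (SD, n = 3) in shControl, 846.1 ± 51.8 CPM in shBMAL1 and 2001 ± 60.3 CPM in shARNT cells (edgeR adjusted p = 2.47e-12 and 2.62e-19). AKR1C1, an aldo-keto reductase with near-identical copies that share its reads, was at 674.3 ± 51.8, 1155 ± 97.2 and 3577 ± 112 CPM (adjusted p = 1.73e-10 and 7.86e-19). GSTP1, a glutathione transferase abundant in many carcinoma lines, had at most 7 counts in any library and was not tested.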
